A study of Mus musculus with 6 samples.

Results

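The calcium/calmodulin-dependent kinase genes followed here are 8 of the 18560 genes counted in single cells of the adult mouse olfactory bulb. They are the CaMKII subunit genes Camk2a, Camk2b, Camk2d and Camk2g, the nuclear kinase gene Camk4, the pseudokinase gene Camkv, the CaMKII inhibitor gene Camk2n1 and the upstream kinase gene Camkk2. The genes were chosen by name as one family, with no threshold on a measured value, and all 8 were present in the count table. Their levels were taken in each of 40 cell clusters of the deposited annotation, 18 neuronal and 22 nonneuronal, and in each of 6 libraries.

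Whole bulbs of wild-type C57BL/6NJ mice aged 14 weeks were dissociated and sequenced from transcript 3′ ends in droplets, with unique molecular identifiers (UMIs) to count molecules. Bulbs came from control mice, from mice with unilateral naris occlusion and from mice trained to discriminate odors. For occlusion, the bulb on the occluded side was the sample deprived of odor input. Per the study's methods the trained mice were deprived of water and worked for a water reward. Water deprivation is not described for the other mice, so it cannot be told apart from training. Each condition had 2 libraries, each a pool of 3 mice, with replicate 1 male and replicate 2 female, and the manipulation ran for 6 weeks. The sample labels give the control mice no manipulation, and the study's text calls the mice naive but also names the open side of mice with an occluded naris as the control, so the origin of the control bulbs was taken from the labels. No transgene or Cre was carried by the profiled mice.

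When calcium enters a neuron it binds calmodulin, and the complex activates this kinase family. CaMKII is a large holoenzyme built from α, β, δ and γ subunits, abundant at synapses of the forebrain and known for its part in synaptic plasticity, while CaMKK2 phosphorylates CaMKIV and AMP-activated kinase. In the olfactory bulb, granule cells receive calcium through NMDA receptors at their synapses with mitral and tufted cells, and granule cells continue to be added from immature neurons throughout adult life.

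In the GRCm38.p6 assembly of RefSeq, Camk2a lies on chr18:60925307-60988152, Camk2b on chr11:5969629-6066357, Camk2d on chr3:126595487-126846326 and Camk2g on chr14:20734873-20794157. Camk4 lies on chr18:32934941-33195767, Camkv on chr9:107935851-107949691, Camk2n1 on chr4:138455148-138460126 and Camkk2 on chr5:122718380-122779522. All are protein-coding genes on separate loci, and the symbols matched 8 of 8 members.

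The libraries held 6705 to 10570 annotated cells and 11841160 to 17065083 UMIs, with a median of 1028 UMIs per cell in the shallowest library (trained replicate 1) and 1723.5 in the deepest (occluded replicate 1). Levels are given as CPM, the UMIs of a gene summed over the cells of a cluster in 1 library, divided by all UMIs of those cells and scaled to a total of 1000000. Of 55 marker genes used to check the annotation, 51 were highest in a cluster of the cell type they stand for, and the deposited names of the clusters were kept. By their numbers of cells, some names within the microglia, astrocytes, mesenchymal cells and ensheathing cells stand for other clusters in the study's own list, so names such as OEC3, Astro3 or MicroG1 are those of the deposited annotation only. Xist was nearly absent from every replicate 1 library and Ddx3y from every replicate 2 library, which fits the stated sex of the pools. The median mitochondrial share of UMIs was high in 3 neuronal clusters, 39.0% in n01-OSNs, 30.5% in n13-AstrocyteLike and 29.7% in n14-GC-7, and clusters n15-M/TC-1 and n16-M/TC-2 had only 90 and 116 cells. Among 49931 distinct cell barcodes, 1461 (2.926%) occurred in more than 1 library, and the effect of shared barcodes on the levels was not tested.

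The 8 genes did not share a single place of highest expression. Camk2b, Camkv and Camk2n1 were highest in the granule cell cluster n11-GC-5, Camk2a in the granule cell cluster n07-GC-2, and Camk2d in the calbindin-type periglomerular cluster n08-PGC-3. Camk4 was highest in the immature neurons of n04, Camkk2 in the mitral and tufted cells of n15-M/TC-1, and Camk2g in a nonneuronal cluster, the astrocytes of Astro1. The clusters were built from the same cells and genes, so these levels are a description and no test between clusters is given.

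**Figure D1:**
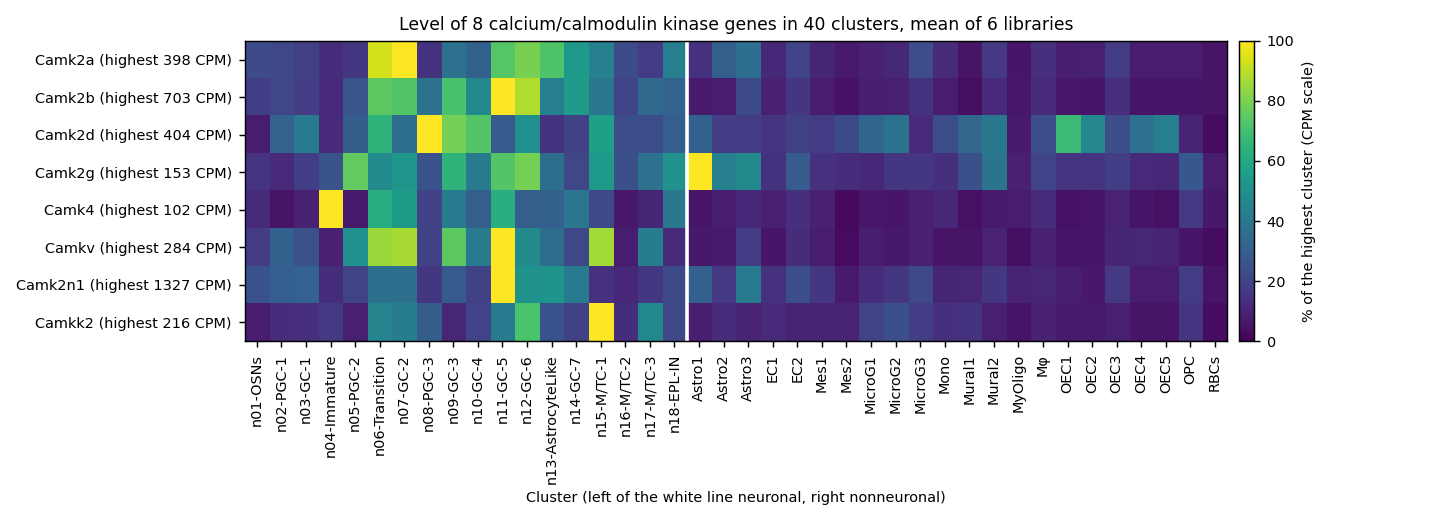
Mean level of each gene (rows) in 40 clusters (columns), as a percentage of the level in its highest cluster on the CPM scale, over 6 libraries. Camk2a, Camk2b and Camkv were high in the same granule cell clusters, Camk4 was highest in n04-Immature, with n11-GC-5, n06-Transition and n07-GC-2 next at 63.9, 63.7 and 55.8 CPM, and Camk2d was also high in the olfactory ensheathing cluster OEC1.

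Camk2a encodes the α subunit, the form most closely tied to excitatory synapses in the forebrain. Its level in n07-GC-2 was 365 and 376 CPM in the control libraries, 442 and 361 CPM in the occluded libraries and 426 and 417 CPM in the trained libraries, a mean of 398 ± 34.8 CPM (SD, n = 6). The occluded values overlapped those of the other conditions, and both trained libraries were above both control libraries. The transitional neurons of n06 followed at 371 ± 32.0 CPM, a difference smaller than the larger of the SDs, and n07-GC-2 was above n06-Transition in 5 of 6 libraries. Next came the granule cells of n12-GC-6 (316 ± 38.1 CPM) and n11-GC-5 (293 ± 23.1 CPM), and then the cluster annotated n13-AstrocyteLike (288 ± 61.4 CPM). n06-Transition was above n12-GC-6 in all 6 libraries and by more than the SD, while n12-GC-6, n11-GC-5 and n13-AstrocyteLike did not differ beyond the SD from one to the next. In the immature neurons of n04 the level was 51.2 ± 16.7 CPM. Between the highest and lowest clusters, n07-GC-2 and Mural1, the ratio of means was 19.6.

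Camk2b encodes the β subunit, which binds actin and anchors the holoenzyme. In n11-GC-5 its level was 719 and 686 CPM in control, 743 and 629 CPM in occluded and 682 and 758 CPM in trained libraries, with a mean of 703 ± 47.0 CPM. The neighboring cluster in the order, n12-GC-6, had 619 ± 133 CPM and a wide range, from 492 CPM in occluded replicate 2 to 823 CPM in trained replicate 2. n06-Transition (527 ± 66.7 CPM), n07-GC-2 (511 ± 49.4 CPM) and n09-GC-3 (502 ± 115 CPM) came after. None of the 39 pairs of neighboring clusters differed beyond the larger of their SDs. The 10 highest clusters of Camk2b were all neuronal, the median of the neuronal cluster means was 269 CPM, and that of the nonneuronal cluster means was 53.8 CPM.

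Camk2d, the δ subunit gene and the main CaMKII form of heart and many other tissues, had the pattern least like the others. In n08-PGC-3 it was at 360 and 428 CPM in control, 408 and 482 CPM in occluded and 435 and 307 CPM in trained libraries (404 ± 61.8 CPM), from 200 UMIs in 279 cells. n08-PGC-3 exceeded the next cluster, n09-GC-3 at 320 ± 53.2 CPM, in 6 of 6 libraries and by more than the larger of the SDs. n10-GC-4 followed at 296 ± 91.0 CPM. The olfactory ensheathing cells, glia that wrap the axons of sensory neurons, took the fourth place, with 276 ± 30.3 CPM in OEC1 and a range over libraries of 226 to 309 CPM. OEC2 had 187 ± 27.4 CPM, OEC5 175 ± 18 CPM and OEC4 151 ± 12.8 CPM, above n04-Immature (50.3 ± 4.31 CPM). Other nonneuronal clusters came near these, with 161 ± 43.1 CPM in Mural2, 151 ± 12.8 CPM in MicroG2, 134 ± 38.1 CPM in Mural1, 132 ± 16.5 CPM in MicroG1 and 125 ± 18.8 CPM in Astro1. OEC3, with 3240 cells, was lower than the other ensheathing clusters, at 95.4 ± 14.2 CPM, below the median of the 40 cluster means (117 CPM). Of all Camk2d UMIs in the 40 clusters, 33.2% came from neuronal clusters, against 67.0% for Camk2a and 74.0% for Camk2b. Summed over all cells of a class, Camk2d was about even, at 115 to 137 CPM in neuronal and 117 to 143 CPM in nonneuronal cells over the libraries.

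Camk2g, the γ subunit gene, was the least counted of the CaMKII genes, with 3982 UMIs in the 40 clusters. In Astro1 its level was 153 and 123 CPM in control, 164 and 140 CPM in occluded and 156 and 179 CPM in trained libraries (153 ± 19.2 CPM). This was above the next cluster, n12-GC-6 at 121 ± 30.4 CPM, in 5 of 6 libraries. The dopaminergic periglomerular cells of n05-PGC-2 had 116 ± 28.4 CPM and n11-GC-5 had 112 ± 17.1 CPM, neither separated from its neighbors by more than the SD. The other astrocyte clusters were lower, Astro3 (1780 cells) at 71.9 ± 16.7 CPM and Astro2 (336 cells) at 66.5 ± 8.83 CPM. Astro1 ranked first among all clusters within 2 of the 6 libraries, and small neuronal clusters scattered widely, from 0 to 193 CPM in n15-M/TC-1.

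Camk4 encodes CaMKIV, a kinase found mainly in the nucleus that phosphorylates CREB. Its level was highest in n04-Immature, at 117 and 84.5 CPM in control, 131 and 89.6 CPM in occluded and 94.6 and 97.8 CPM in trained libraries (102 ± 17.8 CPM). All 6 libraries had more Camk4 in n04-Immature than in n11-GC-5, the next cluster, at 63.9 ± 17 CPM. n06-Transition (63.7 ± 11.9 CPM) and n07-GC-2 (55.8 ± 12.3 CPM) could not be told from n11-GC-5. Of its 1882 UMIs, 77.9% came from neuronal clusters. Counts were small, 22 UMIs or fewer each, in n09-GC-3, n18-EPL-IN, n14-GC-7, n10-GC-4 and n12-GC-6, and an order among these was not detectable at this depth.

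Camkv encodes a kinase-like protein of synaptic vesicles and spines that lacks kinase activity. In n11-GC-5 its level was 270 and 267 CPM in control, 298 and 296 CPM in occluded and 292 and 278 CPM in trained libraries, with the narrow spread of 284 ± 13.6 CPM. It was above n07-GC-2, the next cluster, in 6 of 6 libraries and by more than the SD. n11-GC-5 ranked first among all clusters within 2 of the 6 libraries. The CPM total includes mitochondrial UMIs, whose median share was 7.37% in n11-GC-5 and 17.4% in n07-GC-2. Whether this order holds with a total without them was not tested. The levels in n07-GC-2 (247 ± 29.1 CPM), n15-M/TC-1 (245 ± 121 CPM) and n06-Transition (241 ± 20.0 CPM) did not differ from each other beyond the SD. The n15-M/TC-1 values ran from 96.3 to 418 CPM with 40 UMIs in total. Camkv was also counted in n05-PGC-2 at 144 ± 23.2 CPM and in the mitral and tufted cells of n17-M/TC-3 at 119 ± 18.3 CPM.

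Camk2n1 encodes a small protein that binds and inhibits active CaMKII, and it was the most counted of the 8 genes, with 25104 UMIs. In n11-GC-5 its level was 1312 and 1223 CPM in control, 1455 and 1317 CPM in occluded and 1342 and 1311 CPM in trained libraries (1327 ± 74.9 CPM). In every library this was the highest of the 40 clusters, and it exceeded n13-AstrocyteLike (686 ± 163 CPM) and n12-GC-6 (684 ± 111 CPM) by far more than their SDs. n07-GC-2, where Camk2a was highest, had 488 ± 58.3 CPM. Camk2n1 was also counted in the astrocyte clusters, at 547 ± 114 CPM in Astro3, 407 ± 55.3 CPM in Astro1 and 219 ± 24.3 CPM in Astro2. Astro3 was shallow (median 708.5 UMIs) with a median mitochondrial share of 23.6%. The sum of 6 neuronal markers, named below, was 686 to 1176 CPM in Astro3 and 355 to 469 CPM in Astro1. The part of neuronal RNA in these levels was not tested. n14-GC-7 had the widest spread, 553 ± 265 CPM, with 1072 CPM in occluded replicate 1.

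Camkk2 encodes the kinase that acts upstream of CaMKIV and of AMP-activated kinase. Its highest mean was in n15-M/TC-1, at 216 ± 126 CPM, but that value rested on 29 UMIs in 90 cells and ran from 32.1 to 416 CPM. n12-GC-6 had 161 and 224 CPM in control, 113 and 91.8 CPM in occluded and 150 and 193 CPM in trained libraries (155 ± 48.9 CPM). n15-M/TC-1 did not differ from n12-GC-6 beyond the SD, whereas n12-GC-6 was above n17-M/TC-3 (101 ± 37.5 CPM) in 5 of 6 libraries and by more than the larger of the SDs. Among nonneuronal clusters the microglia of MicroG2 were highest, at 52.6 ± 8 CPM.

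**Figure D2:**
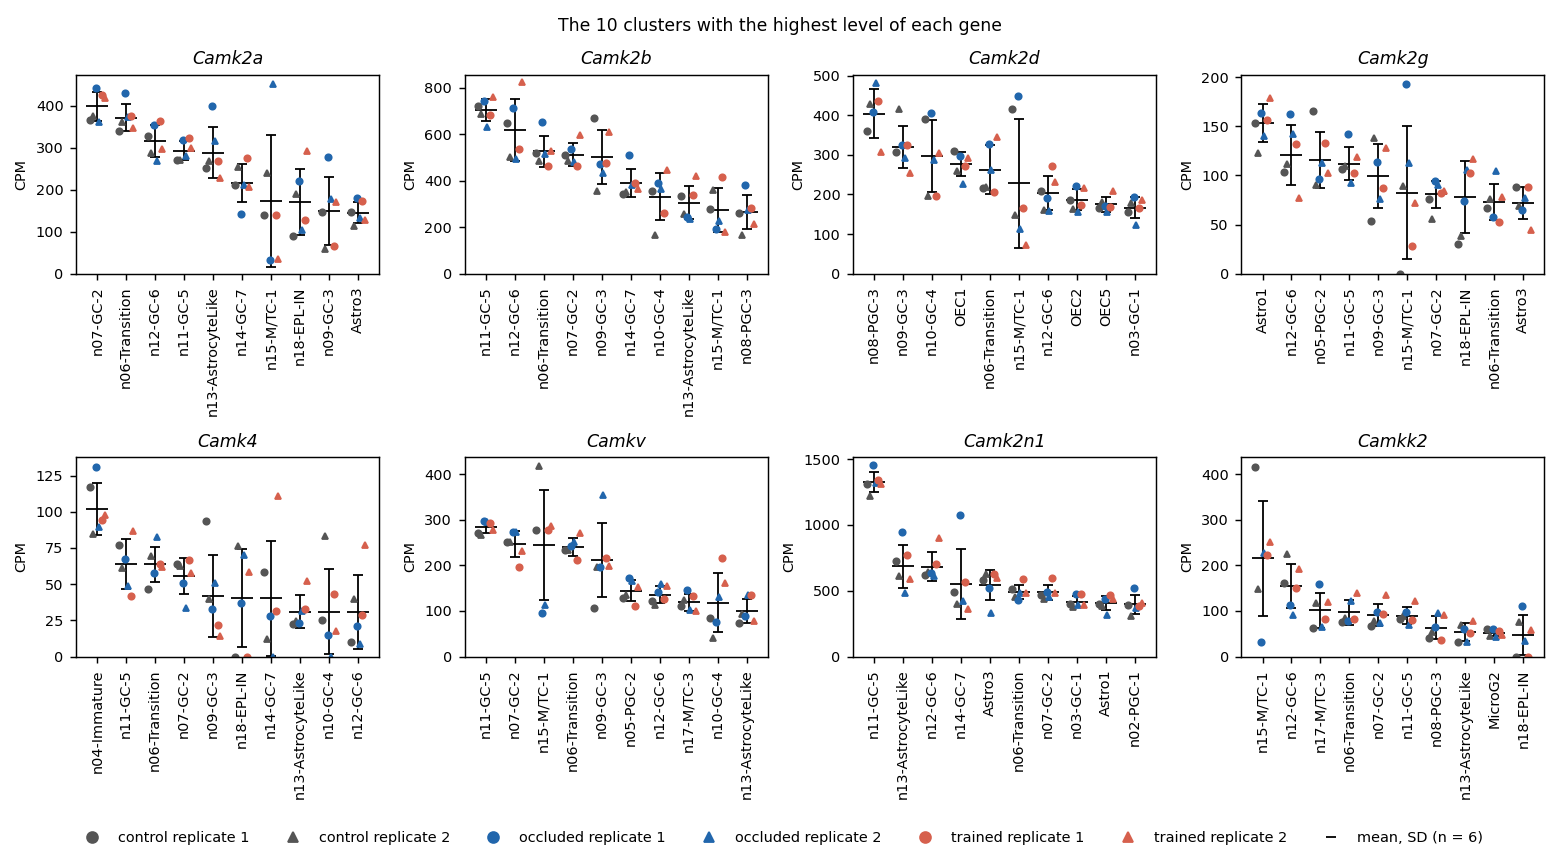
Level in CPM (vertical axes, from 0) of each gene in the 10 clusters with its highest means. Points are single libraries, with color for condition and shape for replicate, and bars are the mean and SD of 6 libraries. Camk2n1 in n11-GC-5 lay between 1223 and 1455 CPM, above all other clusters of the same library, while n15-M/TC-1 scattered widely for Camk2a, Camk2d, Camk2g, Camkv and Camkk2.

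Droplets also capture free RNA, so the level in red blood cells, which should lack these transcripts, was set beside each gene. In the 219 red blood cells, which had a median of 3894 UMIs, Camk2n1 was at 71.8 ± 40.9 CPM, Camk2b at 36.6 ± 25.8 CPM, Camk2a at 21.3 ± 10.7 CPM and Camk2d at 12.1 ± 9.61 CPM. When each cell was thinned to 500 UMIs, 1.87% of red blood cells had a Camk2b UMI, against 30.1% of n11-GC-5 cells and 2.48% of OEC1 cells. The values before thinning were 10.5%, 74.3% and 9.72%, with median depths of 3894, 2110 and 2108 UMIs. Camk2d behaved differently, with 12.4% of OEC1 cells against 0.479% of red blood cells after thinning, and 42.1% against 4.11% before.

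The mean of Camk2d was above the highest red blood cell library in all 21 other nonneuronal clusters, and that of Camk2b in 6 of 21. For Camk4 the count was 0 of 21, and the same count was 7 of 21 for Camk2g, 13 of 21 for Camkv, 16 of 21 for Camk2n1 and 18 of 21 for Camk2a and for Camkk2. For Camk2b, Camk2g and Camkv the highest library was trained replicate 2, which had the fewest red blood cells (11), at 73.7, 36.8 and 18.4 CPM. The next library was at 51.2, 14.2 and 14.2 CPM, so the counts of these genes depend on few UMIs. The hemoglobin genes Hba-a1 and Hbb-bs made up 59.0% of red blood cell UMIs, which lowers the CPM and the thinned share of every other gene there, so these counts do not separate expression from free RNA. Counted per droplet instead, the share of cells with a UMI before thinning was above that of red blood cells in 20 of 21 nonneuronal clusters for Camk2d and 18 of 21 for Camkk2, but in only 5 of 21 for Camk2a and 4 of 21 for Camkv. This count was 14 of 21 for Camk2n1, 12 of 21 for Camk2g, 10 of 21 for Camk2b and 3 of 21 for Camk4. In neuronal clusters it was 18 of 18 for Camk2b and Camk2n1, 17 of 18 for Camkk2 and 16 of 18 for Camk2a and Camk2d. For Camkv, Camk2g and Camk4 it was 15, 13 and 11 of 18. The part of free RNA in clusters at or below the red blood cells was not tested. In the 22 nonneuronal clusters the ratio of Camk2a to Camk2b had a median of 0.762 and a range of 0.552 to 2.28, and the ratio of Camk2d to Camk2b ran from 0.391 to 6.02. The highest Camk2a to Camk2b ratio belonged to the astrocytes of Astro2, with Camk2a at 121 ± 32.5 CPM and Camk2b at 54.3 ± 26.4 CPM.

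The subunit mix of CaMKII was compared as the share of each gene in the CaMKII UMIs of a cluster. UMIs are counted at the 3′ end of each molecule and are not scaled by transcript length, and how well the 3′ end of each gene was captured is not known, so a share compares clusters more safely than genes. Camk2b had the largest share in 16 of the 18 neuronal clusters, between 32.1% and 57.5% over all 18, and Camk2d had the largest share in the other 2. Outside neurons Camk2d led in 13 of 22 clusters, Camk2b in 6, the red blood cells among them, Camk2g in 2 and Camk2a in 1. Some of these leads were smaller than the SD, and in OEC3 (Camk2d 33.3 ± 5.57%, Camk2b 32.7 ± 3.78%) and OPC (Camk2g 27.9 ± 10.4%, Camk2b 26.9 ± 6.32%) Camk2b led when the UMIs of the 6 libraries were pooled.

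In n11-GC-5, with 4466 CaMKII UMIs, Camk2b made up 57.5 ± 1.65%, Camk2a 24.0 ± 1.68%, Camk2d 9.39 ± 1.66% and Camk2g 9.13 ± 0.867% (SD, n = 6). In n07-GC-2 the mix tilted to Camk2a, at 35.0 ± 2.10%, with Camk2b at 45.0 ± 2.19%. The ranges of the libraries did not overlap between these granule cell clusters, with 22.3% to 26.9% against 32.9% to 38.3% for Camk2a.

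Camk2d led in n08-PGC-3, at 53.1 ± 5.31%, and in the calretinin granule cells of n03-GC-1, at 41.8 ± 4.58% against 32.1 ± 2.15% for Camk2b. Dopaminergic periglomerular cells (n05-PGC-2) had the highest Camk2g share of the neurons, 24.1 ± 5.93%. In OEC1 the δ share was 72.8 ± 0.643%, with a range of 71.7% to 73.5%, the highest mean share of any CaMKII gene in any cluster. Astro1 had Camk2g at 39.9 ± 4.92% and Camk2d at 32.7 ± 5.29%.

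**Figure D3:**
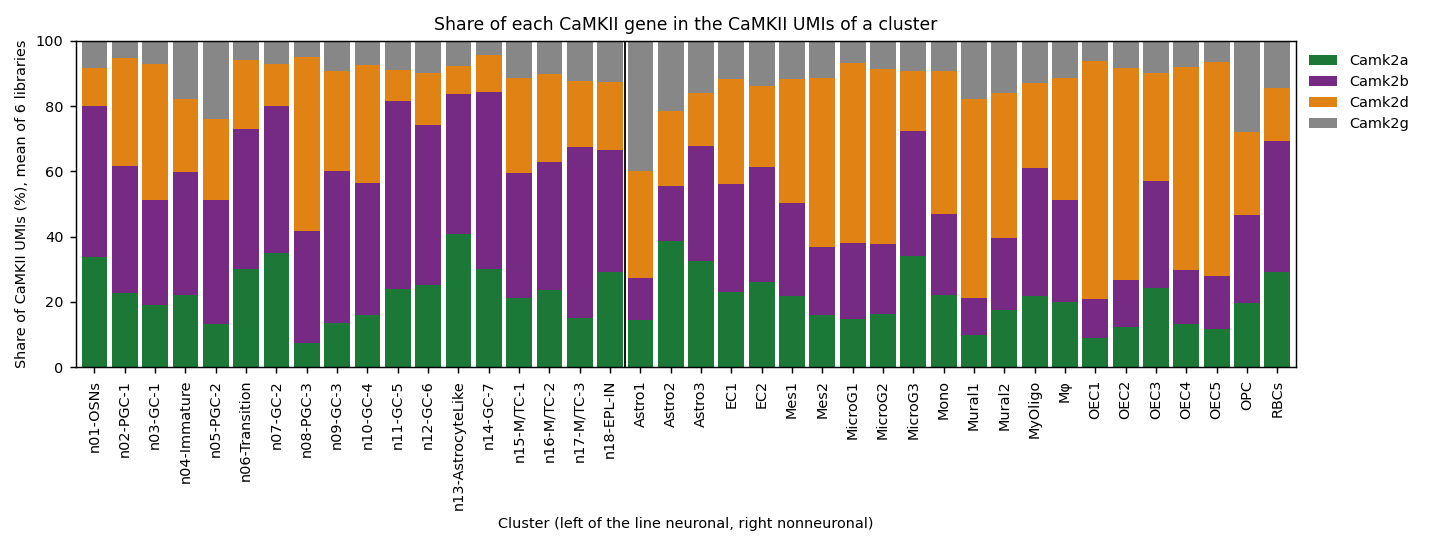
Share of Camk2a, Camk2b, Camk2d and Camk2g in the CaMKII UMIs of each cluster (vertical axis, percent; mean of 6 libraries), with neuronal clusters left of the line. Camk2b was the largest part in 16 of 18 neuronal clusters, and Camk2d in 13 of 22 nonneuronal clusters, reaching 72.8% in OEC1.

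Adult-born neurons were placed by the study on a path that leaves n04-Immature along axis A, with 8 periglomerular and granule clusters, or axis B, with 3 clusters (n09-GC-3, n07-GC-2 and n06-Transition). The levels of the kinase genes along each axis were compared with n04-Immature within each library, as log2(CPM + 1) of the summed clusters minus that of n04-Immature. Of the 8 genes, 7 were higher on both axes in all 6 libraries, and Camk4 was lower on both axes in all 6. These are differences of the summed clusters and need not hold in each cluster of an axis. The share of all genes that differ in this way was not counted. The axes were drawn from the same cells, so no test is given.

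Camkv had the largest difference, from 26.1 ± 4.69 CPM in n04-Immature to 152 ± 15.8 CPM on axis A and 244 ± 25.7 CPM on axis B, log2 differences of 2.50 ± 0.37 and 3.19 ± 0.38 (SD, n = 6). Camk2a went from 51.2 ± 16.7 CPM to 170 ± 18.1 CPM on axis A and 372 ± 34.6 CPM on axis B, with log2 differences of 1.76 ± 0.35 and 2.88 ± 0.43. The axis B values of Camk2a were above its axis A values in each library. For Camk2b the log2 differences were 2.14 ± 0.26 (axis A) and 2.58 ± 0.32 (axis B), and for Camk2d 1.60 ± 0.13 and 1.90 ± 0.19. Smaller differences were found for Camk2g (0.78 ± 0.17 and 0.99 ± 0.25) and Camkk2 (0.70 ± 0.44 and 1.27 ± 0.48).

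Camk2n1, the inhibitor gene, was the only one of the 7 with the larger difference on axis A, 2.00 ± 0.31 against 1.47 ± 0.19 on axis B. When each cluster of axis A counted equally in place of its cells, the axis A difference of Camk2n1 was 1.57 and n11-GC-5 alone held 4875 of the axis A UMIs of this gene. Camk4 was at 102 ± 17.8 CPM in n04-Immature, 30.0 ± 8.10 CPM on axis A and 57.9 ± 5.87 CPM on axis B, with log2 differences of -1.75 ± 0.37 and -0.80 ± 0.32.

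**Figure D4:**
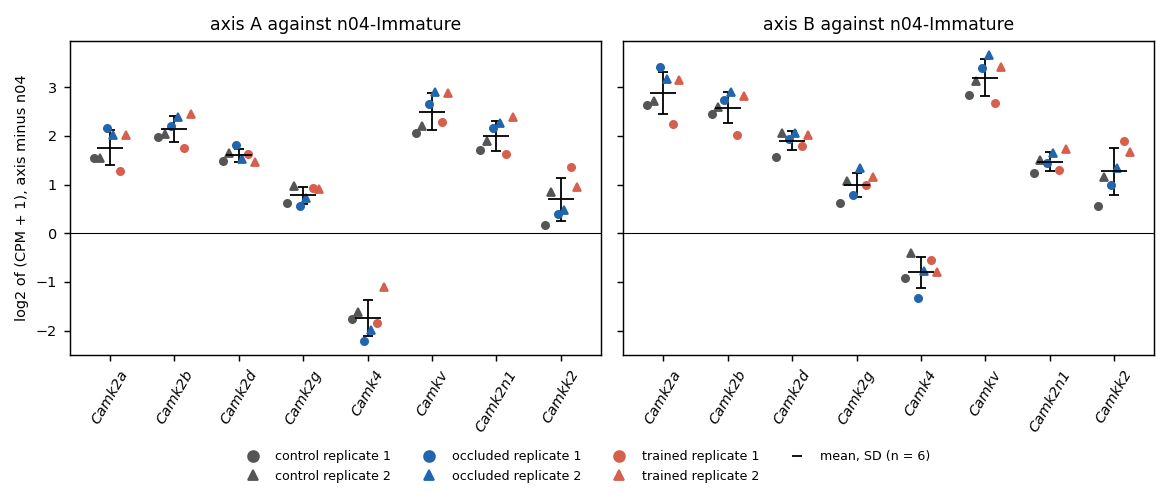
Log2 of (CPM + 1) on axis A (left) and axis B (right) minus that in n04-Immature, for each gene and library, with the mean and SD of 6 libraries as bars. Camk4 was below 0 in every library on both axes, and the other 7 genes were above 0 in every library.

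For each gene, the genes with the most similar levels were found by Pearson's r of log2(mean CPM + 1) over the 40 clusters, among 9215 genes that reached 50 CPM in a cluster. The clusters share libraries and differ in depth, and these values are descriptions. Camk2b ran closest to Snap25, a vesicle fusion gene (r = 0.938), Ncdn (0.937) and Eno2, a neuronal glycolysis gene (0.936). Camkv was most like Camk2b (0.908), and the same gene was the nearest to Camk2a (0.905), ahead of Kcnh3 (0.903) and Ddn (0.897), which code for a potassium channel and a dendritic protein.

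Camk4 ran with 2900079G21Rik (0.871), Syt6 (0.865) and Brinp2 (0.864), and Camk2g with Dclk1 (0.864), Kalrn (0.840) and the AMPA receptor gene Gria2 (0.815). The nearest genes of Camk2n1 were Necab3 (0.834), Agap2 (0.832) and Camk2a (0.831), and those of Camkk2 were Pip5k1c (0.831), Senp2 (0.805) and Rasgrp1 (0.803). Camk2d had the weakest matches, Agk (0.793), Lrrc16a (0.777) and Taz (0.768). Its r with the other 7 kinase genes lay between 0.13 for Camk4 and 0.45 for Camkv, whereas Camk2a and Camk2b had r = 0.90 with each other.

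With condition as the only term, odor deprivation and training gave no change in any of the 8 genes that passed the test, and with the replicate number as a block 1 value passed, Camk2b in MicroG1 for training against occlusion. UMIs were summed per cluster and library, and each of 38 clusters with at least 10 cells in every library was fitted by itself with edgeR's quasi-likelihood test, with Benjamini-Hochberg adjustment over all its genes. This made 194 tests of a member in a cluster for each comparison of conditions. Of these, 0 had an adjusted p under 0.05 for occlusion against control, where 0.068% of all tests were called, and 0 for training against control, where 0.0932% were called. It was also 0 for training against occlusion, where 0.175% of all tests were called, and DESeq2 called 0 members in each comparison, beside 0.0142%, 0.0216% and 0.0349% of all its tests in the same order. With the block, 1 of 194 member tests was called for training against occlusion, beside 521 of 178070 tests over all genes. In bulk sums of this kind, fewer cells of a subtype within a cluster and less RNA per cell cannot be told apart.

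At an unadjusted p under 0.05 there were 11 of 194 (5.67%) for occlusion against control, beside 4.78% of all tests, and 7 of 194 (3.61%) for training against control, beside 5.73%. For training against occlusion there were 27 of 194 (13.9%), beside 7.21%. The edgeR test called 85% to 100% of simulated 2-fold changes in genes of at least 200 CPM in n04-Immature, n07-GC-2 and n11-GC-5, for occlusion against control, and 42.5% to 47.5% of changed genes at any level. In the simulation 200 of 8212 to 9312 genes per cluster were changed, whereas 121 of 178070 tests were called in the data for this comparison. The adjustment is less strict when more genes change, so these shares may be too high for the data and for smaller clusters.

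Each gene was then followed in the tested cluster that held most of its UMIs. Camk2a in n07-GC-2 had a log2 fold change of 0.06 ± 0.18 (SE) for occlusion against control and 0.16 ± 0.17 for training against control, with edgeR adjusted p = 1 and 0.952. Camk2b in n11-GC-5 had -0.06 ± 0.13 and 0.03 ± 0.13 (edgeR adjusted p = 0.987 and 0.989). Camk2n1 in n11-GC-5 had 0.11 ± 0.12 and 0.06 ± 0.12 (edgeR adjusted p = 0.984 and 0.963). The Camk2b libraries of the 3 conditions overlapped. For Camk2n1 both occluded libraries were above both control libraries, and for Camk2a both trained libraries were, each by less than the SE of the difference. With 2 libraries per condition such a separation often arises without a change, and its share over all genes was not counted. The sign of the Camk2a value for training against control changed in cells of at least 1000 UMIs.

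Camk4 in n04-Immature had 0.07 ± 0.18 and -0.09 ± 0.19, and Camkv in n11-GC-5 had 0.13 ± 0.13 and 0.09 ± 0.13. Camk2d in OEC1 had -0.13 ± 0.14 and -0.03 ± 0.14, Camk2g in Astro1 had 0.11 ± 0.14 and 0.25 ± 0.15, and Camkk2 in n11-GC-5 had -0.05 ± 0.23 and 0.22 ± 0.23. The occluded and the trained libraries of Camkv all lay above both control libraries, and so did the trained libraries of Camk2g, whose difference was larger than its SE. The same limit of 2 libraries per condition holds for these separations. The other genes of this group overlapped between conditions. For training against occlusion the same clusters gave values from -0.17 ± 0.18 for Camk4 to 0.27 ± 0.23 for Camkk2. The lowest adjusted p among all 24 of these values was 0.767, for Camk2g under training against control.

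The lowest adjusted p of a member for occlusion against control was that of Camk2n1 in the mitral and tufted cells of n17-M/TC-3. Its level, scaled between libraries by edgeR's TMM factors, was 311 and 260 CPM in control, 193 and 128 CPM in occluded and 321 and 258 CPM in trained libraries, so both occluded libraries were below the other 4. The log2 fold change was -0.79 ± 0.27, with edgeR adjusted p = 0.216, which did not pass.

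For training against occlusion the lowest unadjusted p was that of Camk2b in the 790 microglia of MicroG1, with TMM-scaled levels of 55.5 and 70.7 CPM in control, 35.8 and 29.4 CPM in occluded and 103 and 78.2 CPM in trained libraries. The trained libraries were above the other 4, and the log2 fold change was 1.43 ± 0.35 with edgeR adjusted p = 0.223. The test with replicate number as a block gave 1.44 ± 0.36 with edgeR adjusted p = 0.0459. In MicroG1 as a whole Camk2b was at 58.1 ± 26.7 CPM. Red blood cells had 36.6 ± 25.8 CPM, with 73.7 CPM in their highest library, trained replicate 2. A Camk2b UMI was found in 12.9% of MicroG1 cells and 10.5% of red blood cells, and in 3.01% and 1.87% after thinning. Without trained replicate 2, the shallowest library, trained replicate 1, stood alone for its condition. In that fit Camk2a and Camk2n1 in n04-Immature had log2 fold changes of 1.13 ± 0.25 and 0.64 ± 0.16 for this comparison. With all libraries Camk2a had 0.7 ± 0.26 there.

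Of the 27 values for training against occlusion with an unadjusted p under 0.05, 23 were higher in trained libraries. Over all genes 12840 of 178070 tests had such a p, of which 6780 (3.81% of all tests) were higher. Camk2b made up 10 of the 23 and Camk2n1 8. In nonneuronal clusters there were 17 among 103 member tests, and in neuronal clusters 6 among 91. All clusters share the same libraries, so these values are not independent of each other. The median log2 fold change of the members was 0.26 in nonneuronal clusters and 0.08 in neuronal clusters. It was 0 over all genes tested in both classes together, and the values over all genes were not split by class.

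Over all nonneuronal clusters combined, markers of neurons were also higher in trained than in occluded libraries. The summed level of 6 markers of inhibitory interneurons and granule cells (Gad1, Gad2, Slc32a1, Meis2, Synpr, Penk) over these cells was 335 and 309 CPM in occluded, 438 and 397 CPM in control and 502 and 371 CPM in trained libraries. All 6 markers were higher in trained than in occluded libraries on average, and none was at 0 in any library. Over the same cells Camk2b was at 47.4 and 44.4 CPM in occluded, 64.5 and 55.0 CPM in control and 82.1 and 55.0 CPM in trained libraries. In MicroG1 the summed marker level was 301 and 246 CPM in occluded, 315 and 288 CPM in control and 327 and 262 CPM in trained libraries, with 4 of 6 markers higher in trained than in occluded libraries. In MicroG3 it was 777 and 579 CPM in occluded, 861 and 824 CPM in control and 805 and 662 CPM in trained libraries, while Camk2b was at 60.5 and 51.1, 130 and 96.9, and 149 and 136 CPM in the same order. The 17 higher values lay in 12 nonneuronal clusters. The marker sums of both trained libraries were above those of both occluded libraries in 7 of these (EC2, MicroG2, Mono and OEC1 to OEC4), which held 11 of the 17 values, and overlapped in the other 5 (Astro3, MicroG1, MicroG3, MyOligo and Mφ). Among all 22 nonneuronal clusters the marker sums were above in 10, below in 0 and overlapped in 12. The part of neuronal RNA in the nonneuronal differences was not tested. In all neuronal cells combined, Camk2b was at 312 and 259 CPM in occluded, 323 and 287 CPM in control and 335 and 344 CPM in trained libraries, and the axis B clusters made up 26.4% and 19.6%, 25.7% and 30.3%, and 27.9% and 36.9% of neurons in the same order.

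**Figure D5:**
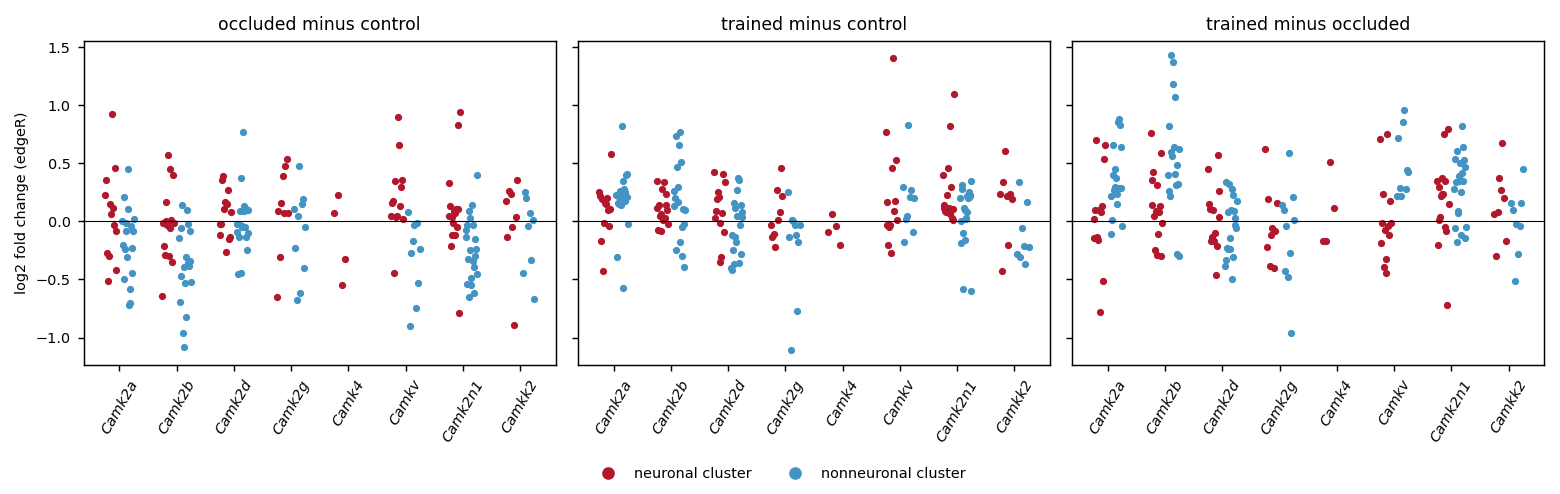
Log2 fold change of each gene in each tested cluster (points, red for neuronal and blue for nonneuronal) for the 3 comparisons of conditions. No point had an adjusted p under 0.05, and the nonneuronal points of Camk2b and Camk2n1 lay mostly above 0 for trained minus occluded.

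The wider calcium/calmodulin pathway was followed with 39 further genes, among them calmodulins, calcineurin subunits, NMDA receptor subunits, CREB family factors and CaMKII substrates. Most (31 of 39) had their highest cluster among neurons. The calmodulin gene Calm2 was highest in n12-GC-6 (5829 ± 421 CPM). Of the NMDA receptor genes, Grin2b was highest in n07-GC-2 (1863 ± 175 CPM), as was Grin1 (587 ± 78.2 CPM), which did not differ there from n18-EPL-IN (535 ± 176 CPM) beyond the SD. Grin2a was highest in n12-GC-6 (290 ± 48.0 CPM), not separated by the SD from n07-GC-2 (270.0 ± 24.5 CPM). Camk1, a related kinase gene, was highest in the microglia of MicroG2, at 438 ± 41.3 CPM.

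In the tests between conditions, 38 of the 39 genes entered, in 794 tests per comparison. No gene of the list passed in either comparison with control by edgeR, with 53 and 38 tests (6.68% and 4.79%) at an unadjusted p under 0.05, beside 4.78% and 5.73% of all tests. For training against occlusion 2 passed (0.252%, beside 0.175% of all tests), both higher in trained libraries, and 0 passed in the other direction. An unadjusted p under 0.05 was found for 83 (10.5%), beside 7.21% of all tests. Hdac5 encodes a histone deacetylase whose export from the nucleus is driven by CaM kinases. Its TMM-scaled level in n11-GC-5 was 61.8 and 80.1 CPM in occluded and 168 and 119 CPM in trained libraries, with 73.8 and 102 CPM in control. Its log2 fold change was 1.02 ± 0.22 (edgeR adjusted p = 0.0329). Syn1, the synapsin gene of synaptic vesicles, had 1.25 ± 0.28 in the ensheathing cells of OEC4 (edgeR adjusted p = 0.0301). Its TMM-scaled level there was 16.2 and 11 CPM in occluded and 37.3 and 27.6 CPM in trained libraries. As CPM over all UMIs, without TMM scaling, Syn1 was at 17.1 ± 13.3 CPM in red blood cells, with a range of 0 to 36.8 CPM. On that scale it was at 331 ± 49.0 CPM in n12-GC-6, its highest cluster. The summed level of the 6 neuronal markers in OEC4 was 222 and 223 CPM in occluded, 332 and 265 CPM in control and 377 and 260 CPM in trained libraries, with all 6 higher in trained than in occluded libraries and none at 0, and their part in the Syn1 difference was not tested. Both calls were kept with the replicate block (edgeR adjusted p = 0.00261 for Hdac5 and 0.0184 for Syn1), with no filter, with other scaling and in cells under 20% mitochondrial. With adjustment over all clusters together the Hdac5 and Syn1 values became edgeR adjusted p = 0.0601 and 0.0525, and DESeq2 gave Hdac5 an adjusted p of 0.86. The Hdac5 call was lost without trained replicate 1 (log2 fold change 0.73) or occluded replicate 1 (0.86), and with only the 2 conditions compared (1.02, edgeR adjusted p = 0.0622). The Syn1 call was lost without trained replicate 1 (1.00), occluded replicate 2 (1.00) or control replicate 2 (1.25), with cells of at least 1000 UMIs (1.20, edgeR adjusted p = 0.064) and with only the 2 conditions compared (1.24, edgeR adjusted p = 0.102), and DESeq2 gave Syn1 no adjusted p.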

How the data were processed

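Single-cell RNA-seq was made with 10x Chromium 3′ v2 chemistry on a NextSeq500. Per the labels the authors used Cell Ranger 2.0.0, Seurat 2.2.1 and the mm10 build, and per the study's methods kept cells with at least 200 genes. The deposited table holds UMI counts, not normalized, for 18560 genes and 52549 barcodes. The deposited annotation gives each cell a library, a cluster and the fraction of mitochondrial UMIs, and 1123 barcodes had none and were left out. The library column was used, since the barcode name starts of 17275 cells, those of the trained libraries, disagree with it, and Xist and Ddx3y fit the column. Per the study's methods the authors removed droplets that held cells of more than 1 type, and no doublet caller was run here. Neuronal clusters came from the second annotation, which left out 755 neurons of the first.

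Counts were summed per cluster and library. CPM used all genes as the total. edgeR 4.0.16 (TMM, filterByExpr, glmQLFTest, R 4.3.3) was fitted per cluster over all 6 libraries with condition as the only term, called at an adjusted p of 0.05, with DESeq2 1.42.0 as an alternative. Pools with the same replicate number share a sex. The p-values of the main fit measure the spread between pools of mice, 2 per condition, and this spread includes the difference between the male and the female pool. The replicate block takes that difference out. Shares of cells with a UMI were thinned to 500 UMIs as the expected value. Scripts were tested on simulated data with 200 genes changed per cluster. Alternatives were other scaling, no filter, a block, only the 2 conditions compared, cells of at least 1000 UMIs or under 20% mitochondrial, a total without mitochondrial genes, the mean over cells, a pseudocount of 10 in place of 1, control libraries only, adjustment over all clusters, and each library left out.

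The members, the pathway list and the markers were chosen with earlier results of these data known. Named were the 8 members in every comparison, in the tested cluster with most UMIs and wherever called, pathway genes with an adjusted p under 0.05 (at most 5 per comparison), and the 3 genes most like each member. Values with the lowest p, and other pathway genes, were named after they were seen.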

Additional observations from a re-analysis of the deposited data

Results flagged for a closer look

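Members were also counted in cells that no comparison used. In the 1123 barcodes without an annotation, which have no library or cluster in the deposited annotation, the levels were 122 CPM for Camk2a, 200.0 CPM for Camk2b, 177 CPM for Camk2d, 63.6 CPM for Camk2g, 23.5 CPM for Camk4, 75.5 CPM for Camkv, 286 CPM for Camk2n1 and 43.1 CPM for Camkk2. In the 755 neurons of the first annotation that the second left out, they were 258 CPM for Camk2a, 386 CPM for Camk2b, 255 CPM for Camk2d, 89.3 CPM for Camk2g, 47.1 CPM for Camk4, 185 CPM for Camkv, 257 CPM for Camk2n1 and 70.3 CPM for Camkk2. The counts behind these values ran from 71 UMIs (Camk4 in the barcodes without an annotation) to 933 UMIs (Camk2b in the left-out neurons). The left-out neurons had a lower CPM of Camk2n1 than the barcodes without annotation, and a higher CPM of the other 7 members. No group of 4 or more samples exists in the design, so single libraries were not screened as outliers.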

How the results depend on the processing

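The members called stayed at 0 for occlusion against control under every alternative run. For training against control the count ran from 0 to 1 when a library was left out, the 1 being Camk2g in EC1 without trained replicate 2 (log2 fold change -2.16). For training against occlusion it ran from 0 to 5, with 5 without trained replicate 2 and 1 without either control library (Camk2b in MicroG1) or occluded replicate 1 (Camk2n1 in OEC3), and it was 1 with the replicate block. The block changed no other member call. Deviations of same-numbered libraries correlated at 0.234 to 0.339 between control and occluded, -0.0605 to 0.356 between control and trained and -0.0985 to 0.233 between occluded and trained, over 5 clusters, with only 2 pairs in each comparison, so the numbers were not taken as pairs. If the control bulbs were the open side of the occluded mice, same-numbered control and occluded libraries would be pairs, which only the block allows for. Where a library was left out, the lone library of its condition was assumed to vary like the others. Calls over all genes and clusters were 121, 166 and 311 for occlusion against control, training against control and training against occlusion, 293, 473 and 730 with no filter, 190, 253 and 521 with the block, 25, 35 and 57 by DESeq2, and 157 for training against occlusion with only those conditions. With 1 library left out they ran from 150 to 359, 91 to 671 and 305 to 1252.

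With a total without mitochondrial genes, the levels in the highest clusters named above were 480 CPM for Camk2a, 760 CPM for Camk2b, 173 CPM for Camk2g, 306 CPM for Camkv and 1433 CPM for Camk2n1. This total was used only in those clusters, so the order of the clusters was not recomputed with it. Control libraries alone gave 268 CPM for Camkv in n11-GC-5. Axis A log2 differences were 1.44 for Camk2d with a pseudocount of 10, 2.13 for Camkv in control libraries only, and 1.89 for Camk2d and 1.57 for Camk2n1 with clusters weighted equally, which gave 2.25 for Camk2d on axis B.

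No fold change in a most counted cluster was called under any alternative, and the sign of 17 changed when a library was left out. For occlusion against control the ranges were -0.14 to 0.19 (Camk2a), -0.16 to 0.04 (Camk2b), -0.32 to 0.05 (Camk2d), -0.00054 to 0.26 (Camk2g), -0.19 to 0.34 (Camk4) and -0.29 to 0.18 (Camkk2). For training against control they were -0.03 to 0.07 (Camk2b), -0.14 to 0.09 (Camk2d), -0.27 to 0.17 (Camk4) and -0.06 to 0.48 (Camkk2). For training against occlusion they were -0.05 to 0.29 (Camk2a), -0.02 to 0.19 (Camk2b), -0.09 to 0.29 (Camk2d), -0.40 to 0.09 (Camk4), -0.10 to 0.01 (Camkv), -0.11 to 0.0077 (Camk2n1) and -0.0098 to 0.54 (Camkk2). Cells of at least 1000 UMIs gave Camk2a -0.00016, -0.01 and -0.01 in the 3 comparisons and Camk4 -0.0046 for occlusion against control. The causes were not tested. Depth limits Camk4, Camkk2 and the clusters n18-EPL-IN, n16-M/TC-2 and n15-M/TC-1, where single libraries hold few UMIs or 0.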
